A study of Mus musculus with 2 samples.

Results

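Blood vascular endothelial cells line the arteries, capillaries and veins of the uterus. They were taken here as barcodes in which at least 3 of the 6 endothelial genes Pecam1, Cdh5, Flt1, Emcn, Adgrl4 and Plvap had a UMI (a unique molecular identifier, 1 counted transcript). Barcodes with more than 2 UMIs of the lymphatic genes Prox1, Mmrn1 and Ccl21a together, more than 1 UMI of the epithelial gene Epcam or more than 1 of the leukocyte gene Ptprc were left out. Barcodes needed 1000 UMIs or more, 500 genes or more and no more than 15% mitochondrial UMIs, and of the 14848 that passed 454 were members, 180 in one library and 274 in the other. The counts of these genes chose the members, so their levels are descriptions and support nothing.

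The libraries came from mouse uteri taken 4 h after treatment, in a study of how anti-Müllerian hormone (AMH) given with chemotherapy bears on the uterus. The DOX group received 3 mg/kg of doxorubicin, a cancer drug of the anthracycline class that traps topoisomerase II on DNA. The DOX_AMH group received doxorubicin at the same dose and AMH at 0.75 mg/kg. Both groups therefore carried doxorubicin, and untreated animals were not analysed here. In each group the uteri of 5 animals were pooled, digested (papain, collagenase A) and loaded as 1 droplet library. Strain is not given in the labels, and the series text describes prepubertal mice and weekly dosing for bulk sequencing, so the schedule of these animals is not known. With 1 library per group no difference could be tested. Where values come in pairs, the DOX value stands first. Levels are given as CPM, a gene's UMIs as a part of all UMIs of the summed members of a library, and a log2 ratio is DOX_AMH over DOX. Intervals of ratios are exact 95% intervals from the binomial split of the UMIs, and those of shares are Clopper-Pearson intervals. All of them cover counting error only, not the spread between cells, animals or pools.

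As background, endothelial cells divide the vascular tree between them. Arterial cells carry Notch signalling and gap junctions, capillary cells handle lipids and solutes, and venous cells after the capillaries display selectins and adhesion molecules that slow leukocytes. VEGF receptors maintain them, angiopoietins act through Tek, and circulating BMP9 and BMP10 act through Acvrl1, Bmpr2 and the co-receptor Eng to phosphorylate SMAD proteins and induce Id genes. AMH belongs to the same ligand family and signals through its own type II receptor, Amhr2. Doxorubicin is pumped out of cells by the efflux transporters Abcb1 and Abcg2, which many endothelia carry.

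In all, 129530270 and 97887259 UMIs were counted in 9258 and 8083 barcodes, and 7783 and 7065 barcodes passed. Median depths were 13975 and 10221 UMIs over passing barcodes and 12857.5 and 11277.5 over members. Summed over members there were 3071566 and 4398597 UMIs, so a floor of 3 counts stood at 0.977 and 0.682 CPM. Members had median mitochondrial shares of 6.48% and 5.72%. Of the barcodes, 17 occurred in both libraries, and 1 of these was a member, in 1 library only. Scrublet called 20 and 28 members doublets.

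The label held for only some of the members. Each member was given its share of endothelial UMIs, that is the UMIs of 24 endothelial identity genes as a part of those plus the UMIs of stromal, smooth muscle, pericyte and epithelial marker genes. This measure was chosen after the data were seen. A share of at least 0.8 was found in 66 of 180 members in DOX (36.7%, 29.6 to 44.2) and in 155 of 274 in DOX_AMH (56.6%, 50.5 to 62.5). These are called endothelial-rich below. At the other end, 69 and 35 members had a share under 0.2, so most of their counted marker RNA was that of other cells. Shares between 0.7 and 0.9, on either side of the limit, were found in 25 and 48 members. Summed stromal markers stood at 7278 and 2710 CPM over all members, at 346 and 286 CPM in endothelial-rich members and at 14521 and 8813 CPM in all other passing barcodes. The 24 identity genes together, which set the share, stood at 9076 and 8290 CPM in endothelial-rich members. Members outside the endothelial-rich set were deeper, with medians of 17248.5 and 15675 UMIs against 7224.5 and 9163. They also held all of the doublets that Scrublet called among members. A difference over all members therefore also carries the smaller stromal part of the DOX_AMH members, and the main results below are given over all members and over endothelial-rich ones.

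**Figure D1:**
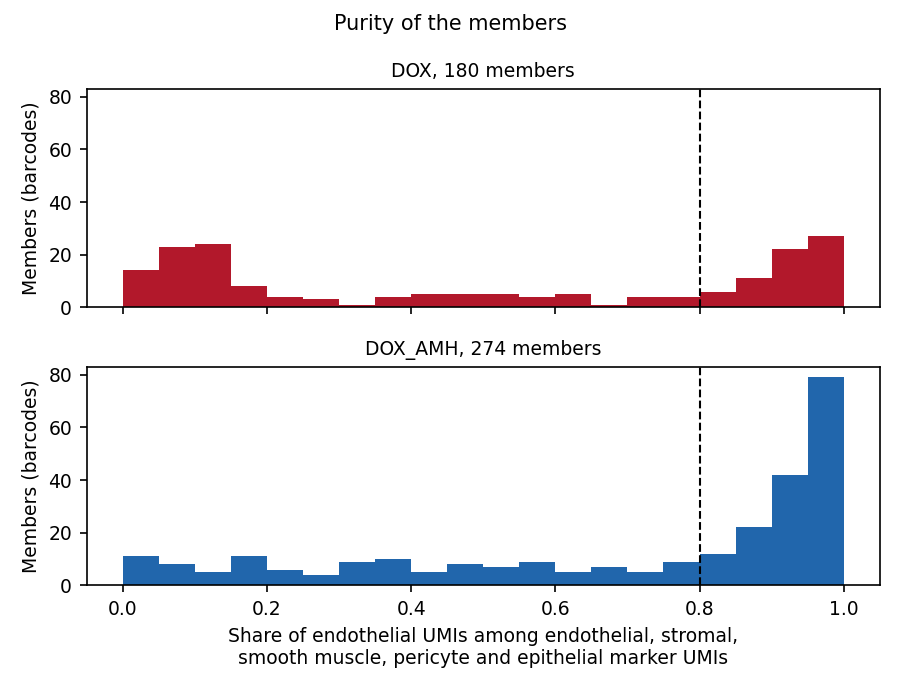
Number of members (vertical axis) by share of endothelial UMIs among endothelial, stromal, smooth muscle, pericyte and epithelial marker UMIs (horizontal axis), for DOX (180 members) and DOX_AMH (274). The dashed line marks 0.8; 66 DOX and 155 DOX_AMH members lie at or above it, and DOX has a second group of members under 0.2.

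At the threshold of the rule, members with exactly 3 of the 6 genes numbered 39 and 31, of which 4 and 6 were endothelial-rich, and their median endothelial shares were 0.0896 and 0.120. Members with all 6 genes numbered 82 and 146, with median shares of 0.755 and 0.932. Just outside the rule, 333 and 217 barcodes had 2 of the 6 genes, with median shares of 0.0400 and 0.0424. Of those, 20 and 16 would have been endothelial-rich. The limits on lymphatic, epithelial and leukocyte genes left out 147 of 327 barcodes with 3 or more of the genes in DOX and 64 of 338 in DOX_AMH.

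Members made up 2.31% (1.99 to 2.67) of passing barcodes in DOX and 3.88% (3.44 to 4.36) in DOX_AMH. Since more UMIs per barcode show more markers, every barcode was also thinned to 2000 UMIs, which left out 258 and 200 shallower ones. Members were then 1.42% (107 of 7525, 1.17 to 1.72) and 2.94% (202 of 6865, 2.56 to 3.37). Endothelial-rich members were 0.848% (0.656 to 1.08) and 2.19% (1.87 to 2.56) of passing barcodes. The share was thus higher in DOX_AMH on all of these measures, beyond counting error. All of them include the lymphatic, epithelial and leukocyte limits of the rule. Before those limits, 327 of 7783 and 338 of 7065 passing barcodes had 3 or more of the 6 genes. The limits then left out 147 in DOX and 64 in DOX_AMH, so the larger part of the difference in member share arises with them. The shares before the limits lay much closer together and were given no interval. No direction is therefore given for the share of endothelial barcodes apart from the limits. What the barcodes left out were was not tested. How evenly the uteri of each pool were dissociated is not known, and the share of cells released and the share present in tissue cannot be told apart. For comparison, nonmembers with 3 or more of the lymphatic genes Prox1, Mmrn1, Ccl21a, Lyve1, Flt4 and Reln (the lymphatic endothelial gate) were 1.48% and 0.778% of passing barcodes. Remaining barcodes with 3 or more of the mural genes Rgs5, Notch3, Cspg4, Kcnj8, Abcc9, Higd1b and Ndufa4l2 (the pericyte gate) were 5.90% and 7.28%. The purity of these gates was not checked.

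RNA of cells outside the vessel wall also differed between the libraries. Haemoglobin and other erythroid genes summed to 17.8 and 7898 CPM in endothelial-rich members, all 4 measured genes being higher in DOX_AMH, to 19.0 and 6618 CPM in the pericyte gate and to 139 and 2582 CPM in all other passing barcodes. Squamous keratinocyte genes summed to 0 and 47.2 CPM in endothelial-rich members. Macrophage markers stood at 131 and 44.3 CPM there, and pericyte markers at 20.5 and 101 CPM. The part of these RNAs in the differences below was not tested.

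The genes most restricted to the members, by the lower of the ratios of member to other CPM in the 2 libraries, named the vascular lining. Beside the rule's own Flt1, Adgrl4 and Plvap, they were led by Fam167b at 77.5 and 91.4 CPM in members against 0.536 and 0.540 CPM in other passing barcodes. Aplnr, the apelin receptor, stood at 126 and 140 CPM in members against 1.08 and 0.871 CPM. Gpihbp1, which holds lipoprotein lipase on the capillary surface, stood at 91.2 and 231 CPM against 1.06 and 3.20 CPM. Others among the first 20 were the guidance receptor Robo4, the phosphatase Ptprb, the clotting protein gene Vwf, the selectin Selp, the retinol-binding protein gene Rbp7 and the orphan nuclear receptor Nr5a2. These ratios follow from the choice of members.

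Levels of the general endothelial genes lay closer together in the 2 libraries once mixed members were set aside. These genes set the share of endothelial UMIs, so their levels in endothelial-rich members follow in part from that choice. Over all members, 13 of 24 identity genes were at least 1.3-fold higher in DOX_AMH and 0 lower, against a background of 17.8% higher and 17% lower among all 12784 genes with at least 20 UMIs. In endothelial-rich members 0 were higher and 2 lower, with a background of 23.9% and 16.2% of 9810 genes. Pecam1, the junctional adhesion molecule, stood at 484 and 718 CPM over all members and at 880 and 954 CPM in endothelial-rich ones, a log2 ratio of 0.12 (-0.01 to 0.25). Flt1, the VEGF receptor 1, stood at 1090 and 1162 CPM in endothelial-rich members (0.09, -0.02 to 0.21), and Cdh5, VE-cadherin, at 704 and 711 CPM (0.01, -0.13 to 0.16). Emcn, a sialomucin of capillaries and veins, stood at 874 and 914 CPM (0.07, -0.06 to 0.20). Adgrl4, an adhesion G-protein-coupled receptor, was higher at 562 and 756 CPM (0.43, 0.27 to 0.59), and Plvap, which forms the diaphragms of fenestrae and caveolae, lower at 454 and 352 CPM (-0.37, -0.55 to -0.17). Of the signalling receptors, Kdr, the main VEGF receptor, had a log2 ratio of 0.17 (-0.02 to 0.35), Tek, the angiopoietin receptor, -0.26 (-0.45 to -0.07), and Aplnr -0.46 (-0.71 to -0.21), or -0.20 without the 1 barcode in each library with most of its UMIs.

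The members divided into 11 clusters, 4 of which held 199 of the 221 endothelial-rich members. Cluster 7 was capillary-like (16 and 41 members), led by Fabp4, Cd36, Btnl9, Pparg and Rbp7, genes of fatty acid uptake and its control. Its top genes also held Cfd and Car3, markers of fat cells, and adipocyte markers summed to 573 CPM in it. Cluster 2 was venous-like (20 and 26 members), led by Tll1 with the selectins Sele and Selp and with Bst1. Cluster 6 was arterial-like (12 and 31 members), with the kinase gene Bmx, the semaphorin gene Sema3g and Stmn2 among its leading genes and with Fcer1g, an immune receptor chain, at its head. Cluster 1 (20 and 46 members) was led by haemoglobin genes with Aplnr, Bambi and Car4 and stays unnamed. Of the rest, cluster 0 was found only in DOX (29 members, led by Erbb4 and Hmga2, 0 endothelial-rich), and cluster 10 only in DOX_AMH (7 members, led by haemoglobin genes). Cluster 3 (37 and 34 members, 0 endothelial-rich) was led by Slpi, Cxcl2 and Saa3 and held 27 of the doublets, cluster 8 (15 and 44) by the smooth muscle genes Actg2 and Myh11 and cluster 4 (14 and 15) by genes of dividing cells. A cluster of 1 library may stand for that library and not for a kind of cell.

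Interferon-induced transcripts were lower in DOX_AMH than in DOX. The type I interferon list holds genes that the cytokine induces through the factor ISGF3 and that restrict viruses. Over all members the median log2 ratio of 32 measured genes was -0.46, with 18 lower by 1.3-fold or more and 0 higher. In endothelial-rich members 26 of 32 were lower and 0 higher, with a median of -0.86, where all genes had medians of 0.03 and 0.05. Of all genes 17% were that much lower over all members and 16.2% in endothelial-rich ones. Ifit3, whose protein binds viral RNA complexes, stood at 195 and 50.5 CPM in endothelial-rich members, a log2 ratio of -1.95 (-2.33 to -1.58), and over all members at 135 and 39.1 CPM (-1.79, -2.06 to -1.53). It had a UMI in 34 of 66 and in 45 of 155 endothelial-rich members. After thinning to 2000 UMIs these shares were 21.9% (12.5 to 34.0) and 8% (4.20 to 13.6), beside 9.58% and 1.97% in all other passing barcodes. Isg15, a ubiquitin-like modifier, stood at 465 and 204 CPM (-1.19, -1.40 to -0.98). Bst2, or tetherin, which holds budding virus at the surface, stood at 1241 and 551 CPM (-1.17, -1.30 to -1.05). Irf7, the factor that amplifies interferon production, stood at 167 and 58.6 CPM and the nucleic acid sensor Zbp1 at 57.4 and 14.3 CPM. The list was not uniform. Ifi27 stood at 160 and 190 CPM (0.25, -0.05 to 0.56) and Stat2, a part of ISGF3, at 61.5 and 60.5 CPM. Rsad2, or viperin, stood at 264 and 181 CPM, but 1 DOX barcode held 38.9% of its UMIs there, and without the leading barcode of each library its log2 ratio was 0.06.

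The promoters of 3 of these genes are shown because the response is defined by a sequence, the interferon-stimulated response element. The letters searched were GAAA and again GAAA with 2 bases of any kind between them, on both strands, from 250 bases before to 50 after each start in RefSeq (GRCm38.p6). Of 25 interferon genes with a promoter entry 16 held a match (64.0%), against 3.99% of 27025 genes. The stretch around the matches is printed 5′ to 3′ on the gene's strand, with the matches in capitals. On the Ifit3 and Ifit3b promoters they read as the reverse complement, and those on Isg15 overlap. The windows lie at chr19:34583333-34583456 (+) for Ifit3, chr19:34607729-34607852 (+) for Ifit3b and chr4:156200835-156200936 (-) for Isg15.
Ifit3: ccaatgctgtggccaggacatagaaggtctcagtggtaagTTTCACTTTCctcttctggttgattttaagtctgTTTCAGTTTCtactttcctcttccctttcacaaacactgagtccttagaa
Ifit3b: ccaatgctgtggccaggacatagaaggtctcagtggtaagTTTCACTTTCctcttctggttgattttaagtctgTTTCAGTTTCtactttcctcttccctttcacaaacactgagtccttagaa
Isg15: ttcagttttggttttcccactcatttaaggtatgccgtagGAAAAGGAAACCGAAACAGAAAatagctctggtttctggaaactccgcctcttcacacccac
The Ifit3 and Ifit3b stretches are the same letter for letter. Ifit3b stood at 80.7 and 21.0 CPM in endothelial-rich members (-1.94, -2.54 to -1.36), close to the ratio of Ifit3, but the 2 genes are near copies and their reads may have been divided between them, so their separate values are uncertain. A match is a description, not a bound site or a cause of the difference.

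The interferon counts varied between the clusters of members, and each is set here beside the share of all genes of that cluster that lay 1.3-fold or more below DOX. In capillary-like cluster 7, 29 of 30 measured genes of the list were that much lower (background 23.4%), and the median log2 ratio was -1.47. In venous-like cluster 2 they were 17 of 22 (background 23.5%, median -0.86) and in arterial-like cluster 6 14 of 22 (24.1%, -0.60). In unnamed cluster 1 they were 9 of 30 (18.9%, -0.28), with 3 higher. Among the clusters that held the remaining members, the list was also low in cluster 4 (28 of 30, background 22.5%, median -1.27), and in cluster 5, led by Dio2 and Spon1 (17 of 19, 23%, -1.34). It was lower for 21 of 30 genes in cluster 8 (24.3%, -0.48). In cluster 3, led by Slpi, 8 of 27 were lower (16.6%) and 6 higher, with a median of -0.04. In cluster 9 only 5 genes of the list were measured, and clusters 0 and 10 were of 1 library. Ifit3 stood at 441 and 63.0 CPM in cluster 7 (-2.81, -3.41 to -2.23), at 145 and 24.7 CPM in cluster 2 (-2.55, -3.87 to -1.43), at 188 and 72.1 CPM in cluster 6 (-1.38, -2.45 to -0.26) and at 104 and 55.3 CPM in cluster 1 (-0.91, -1.65 to -0.14). Its interval in cluster 7 lay below that in cluster 1 and overlapped those in clusters 2 and 6, and of these 4 clusters its DOX level was highest in cluster 7. Bst2 stood at 2560 and 545 CPM in cluster 7 and at 889 and 637 CPM in cluster 1. Whether the ratios differ between clusters was not tested, since each cluster has 1 library per group. The same list was lower outside the members as well. Its median was -1.47 in the lymphatic endothelial gate (30 of 31 lower, 0 higher, background 19.9% and 19.6%), -1.95 in the pericyte gate (31 of 32 lower, 0 higher, background 16.6% and 20.3%) and -1.14 in all other passing barcodes (30 of 32 lower, 0 higher, background 7.95% and 29%).

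**Figure D2:**
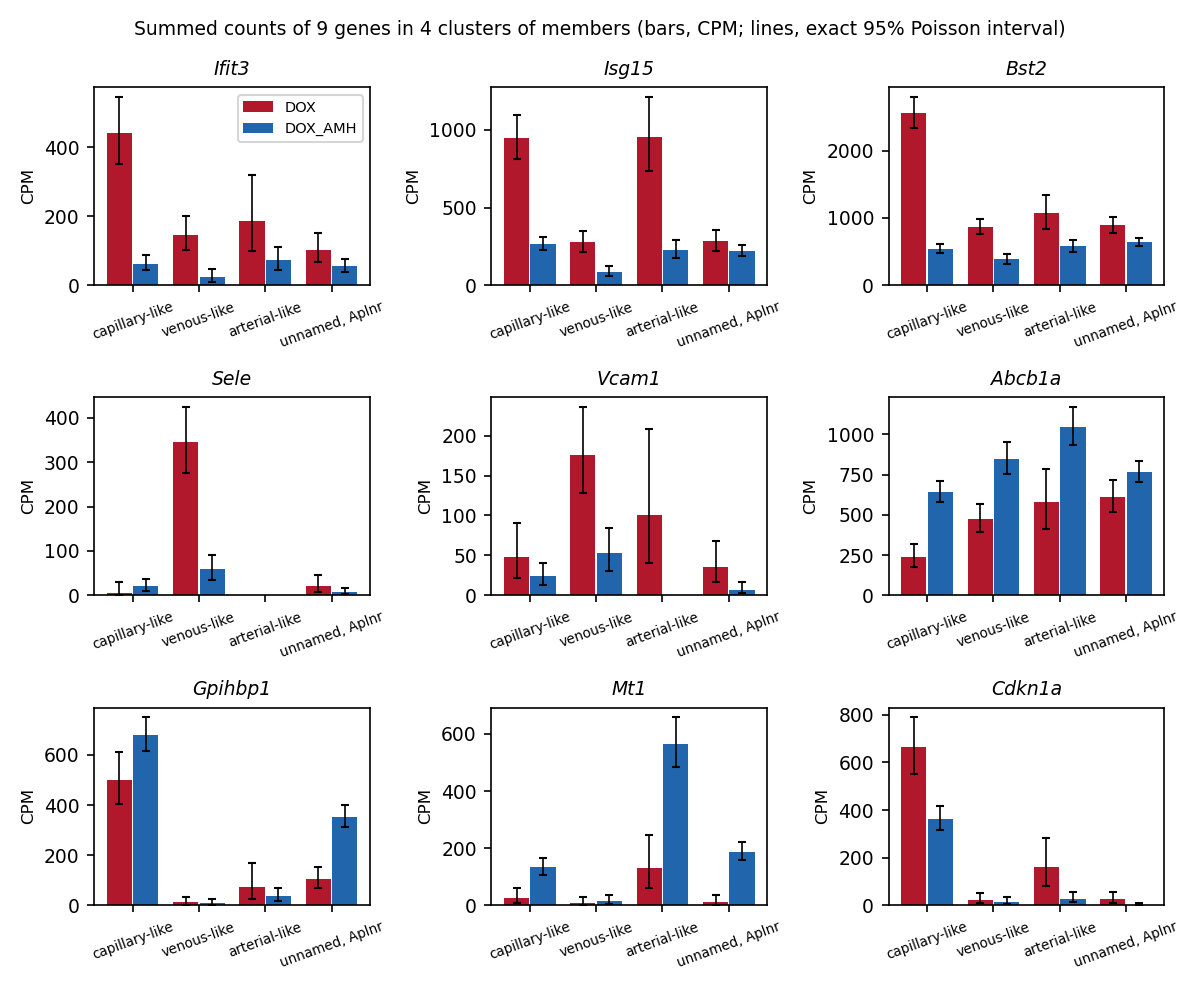
CPM (vertical axes) of 9 genes in the capillary-like, venous-like, arterial-like and unnamed clusters of members, in DOX (red) and DOX_AMH (blue). Bars are summed counts of 1 library each and lines are exact Poisson intervals at 95%; Ifit3 is lower and Abcb1a higher in DOX_AMH in all 4 clusters, and Sele is counted mainly in the venous-like one.

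MHC class I genes, which present peptides to T cells and which interferons also raise, were less far apart over all members and over endothelial-rich ones. In endothelial-rich members the median log2 ratio of 13 genes was -0.33, with 5 lower by 1.3-fold or more and 0 higher, while over all members 0 of 13 were lower or higher. The background was 17% lower over all members and 16.2% in endothelial-rich ones. H2-K1 stood at 994 and 770 CPM (-0.37, -0.50 to -0.24) and H2-D1 at 1267 and 958 CPM (-0.40, -0.52 to -0.29). B2m, the light chain that they share, stood at 1144 and 1092 CPM (-0.07, -0.18 to 0.05). The MHC class II chain gene Cd74 had a log2 ratio of -1.58 in these members, yet 80.9% of its DOX UMIs lay in 1 barcode, and without the leading barcodes the ratio was 0.25. By cluster, class I genes were lower for 8 of 12 in cluster 2 (background 23.5%, median -0.73) and 9 of 12 in cluster 6 (24.1%, -0.53). They were lower for 8 of 13 in cluster 7 (23.4%, -0.53), with 0 higher in clusters 2, 6 and 7. In cluster 1, 2 of 12 were lower and 2 higher (-0.03), and in mixed cluster 3, 11 of 12 were higher (0.76).

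Venous genes and leukocyte adhesion molecules were lower in DOX_AMH among endothelial-rich members. Among 16 venous genes the median was -0.60, with 9 lower and 4 higher by 1.3-fold. Of 17 genes of leukocyte adhesion and NF-kB signalling 7 were lower and 2 higher (-0.33). The background in these members was 16.2% lower and 23.9% higher, so the venous genes that were higher were near it. Over all members the venous median was -0.09, and the adhesion list had a median of 0.34 with 12 of 25 genes higher (background 17.8%). Sele, or E-selectin, on which leukocytes roll, stood at 126 and 23.8 CPM in endothelial-rich members (-2.40, -2.93 to -1.89) and at 42.3 and 20 CPM over all members. It was counted in 13 of 66 and 14 of 155 of them. At 2000 UMIs these shares were 12.5% (5.55 to 23.2) and 3.33% (1.09 to 7.61), beside 0.0953% and 0.0606% in all other passing barcodes. One DOX barcode held 33.7% of the Sele UMIs, and without the leading barcodes the ratio was -2.05. Vcam1, which binds integrins of leukocytes, stood at 93.0 and 18.1 CPM (-2.36, -2.97 to -1.77). Selp, or P-selectin, stood at 241 and 102 CPM (-1.24, -1.53 to -0.94). Lrg1 stood at 217 and 101 CPM (-1.11), Nr2f2, the factor that sets venous identity, at 286 and 155 CPM (-0.88) and Vwf at 232 and 152 CPM (-0.61). Icam1, another integrin ligand, had an interval that held 0 (-0.33, -0.76 to 0.12), and Ackr1, the chemokine carrier of venules, had only 7 and 16 UMIs.

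Of the endothelial-rich members 19 of 66 in DOX and 26 of 155 in DOX_AMH lay in venous-like cluster 2, and the part of this makeup in the venous values was not tested. Within that cluster Selp stood at 580 and 460 CPM (-0.34, -0.67 to 0.00) and Vwf at 455 and 469 CPM. Sele stood there at 345 and 58.6 CPM (-2.56, -3.35 to -1.83), Vcam1 at 176 and 52.5 CPM (-1.75, -2.65 to -0.92) and Nr2f2 at 615 and 281 CPM (-1.13, -1.52 to -0.75). Sele, Vcam1 and Nr2f2 were more than 2-fold apart within the cluster, and the interval of Selp reached 0. The lists were closer to equal there than over endothelial-rich members. Of 14 venous genes 5 were at least 1.3-fold lower and 3 higher (median -0.25), and of 10 adhesion genes 4 were lower and 2 higher (-0.29). Of all 4618 genes measured in the cluster 23.5% were lower and 1000 were higher. Sele and Selp are among the genes that lead the cluster, so cluster and level are not independent for them. The chemokine gene Cxcl10 stood at 134 and 2.38 CPM in endothelial-rich members, but 76.5% of its DOX UMIs were in 1 barcode. In lymphatic endothelial barcodes Sele had 0.466 and 3.16 CPM, at or under the floor of 3 counts in both libraries. The letters GGGA and TTCC of an NF-kB site were searched with 2 bases of any kind between them, on both strands. They were found in 7 of 18 promoters of the adhesion list (38.9%) and in 1.63% of all promoters. Only 18 of the 27 genes of that list had a promoter entry. Sele, Selp and Vcam1 were not among the matches. That says nothing of other windows, of sites with other letters or of genes without an entry.

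**Figure D3:**
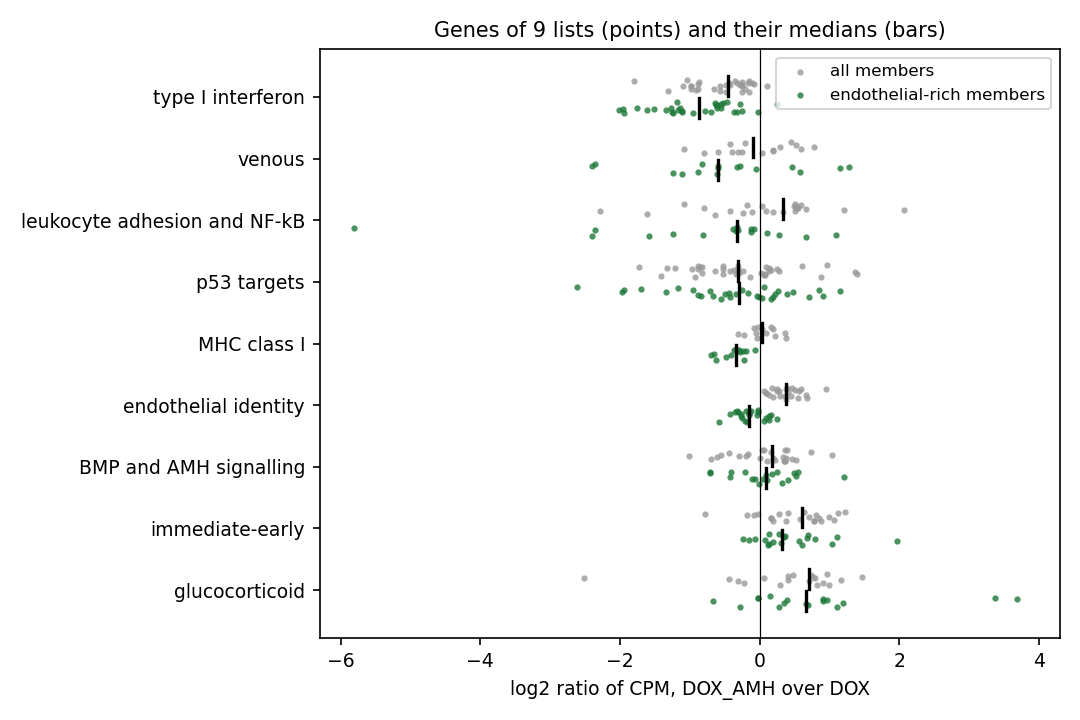
Log2 ratios of CPM, DOX_AMH over DOX (horizontal axis), of the genes of 9 lists with at least 20 UMIs (points), over all members (grey) and endothelial-rich members (green); black bars are list medians. The interferon median is -0.46 over all and -0.86 over endothelial-rich members, and the glucocorticoid median 0.70 and 0.67.

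Targets of p53, the factor that DNA damage stabilises, were lower in DOX_AMH for part of the list. In endothelial-rich members 15 of 32 were at least 1.3-fold lower and 6 higher (median -0.29), and over all members 16 of 39 were lower and 5 higher (-0.31). The background was 17% lower and 17.8% higher over all members, and 16.2% and 23.9% in endothelial-rich ones, to which the values below belong. Gdf15, a secreted stress hormone, stood at 67.0 and 11 CPM (-2.61, -3.39 to -1.87), with 44.9% and 39.1% of its UMIs in 1 barcode of each library and a ratio of -2.49 without those. Bax, which permeabilises mitochondria, stood at 213 and 119 CPM (-0.84, -1.13 to -0.54) and Ccng1 at 47.8 and 24.8 CPM (-0.95, -1.60 to -0.29). Phlda3, an inhibitor of Akt, stood at 53.3 and 21.0 CPM (-1.35, -2.00 to -0.69). Cdkn1a, the cell cycle inhibitor p21, stood at 149 and 110 CPM (-0.44, -0.78 to -0.10). At 2000 UMIs a Cdkn1a UMI was found in 22.2% (16.3 to 29.0) and 13.5% (9.63 to 18.2) of all members, mixed ones included. In all other passing barcodes the shares were 24.2% and 15%. In endothelial-rich members they were 17.2% (8.90 to 28.7) and 10.7% (6.22 to 16.7), below those of the other barcodes and with intervals that overlap. Unthinned, the shares were 43.9% and 28.8% of all members and 30.3% and 21.9% of endothelial-rich ones. Mdm2, which degrades p53, had an interval that held 0 (-0.56, -1.12 to 0.03), and Ddit4, which p53 shares with other stress pathways, was higher at 36.9 and 69.1 CPM (0.90, 0.30 to 1.55).

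Medians of the p53 targets varied between clusters, and whether the clusters differ was not tested. In capillary-like cluster 7, 17 of 26 measured targets lay 1.3-fold or more below DOX and 6 as far above it (median -0.80), against 23.4% and 29.3% of all its genes. In the other clusters rich in endothelial cells few targets were measured, and the medians were 0.13 in cluster 1 (4 of 16 lower, 5 higher), 0.06 in cluster 2 (3 of 9 lower, 1 higher) and 0.34 in cluster 6 (3 of 8 lower, 4 higher). Targets had lower medians in other clusters, at -0.90 in cluster 4 (22 of 26 lower) and -1.49 in cluster 5 (10 of 13 lower). In cluster 8 the median was -0.25 (11 of 27 lower). Of all genes 18.9%, 23.5% and 24.1% were lower in clusters 1, 2 and 6, and 22.5%, 23% and 24.3% in clusters 4, 5 and 8. Higher were 1612 of 6263 genes in cluster 1, 1000 of 4618 in cluster 2 and 1207 of 3355 in cluster 6. With so few targets measured, no direction is given for clusters 1, 2 and 6. Cluster 3 went the other way, with 17 of 29 targets higher against 32.9% of all its genes, 3 lower and a median of 0.70. Cdkn1a stood at 664 and 363 CPM in cluster 7 (-0.87, -1.20 to -0.54) and at 23.5 and 15.4 CPM in venous-like cluster 2. Gdf15 stood at 228 and 32.4 CPM in cluster 7 and had 0 UMIs in both libraries in cluster 2. Lists of apoptosis genes (median -0.07, 4 of 19 lower and 2 higher) and DNA repair genes (0.08, 3 of 22 lower and 6 higher) had medians nearer 0 in endothelial-rich members. Of all genes there 16.2% were lower and 23.9% higher. In the pericyte gate the p53 median was -1.02.

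Glucocorticoid-responsive genes were higher in DOX_AMH, 13 of 19 at least 1.3-fold over all members (median 0.70) and 10 of 17 in endothelial-rich ones (0.67). At a stricter share of 0.9 the median of the latter was 0.32. The background was 17.8% higher over all members and 23.9% in endothelial-rich ones. Mt1, a metal-binding metallothionein, stood at 23.2 and 240 CPM in endothelial-rich members (3.37, 2.68 to 4.16), and the barcode with most of its UMIs held 23.5% and 21.4% of them. Over all members it stood at 80.1 and 221 CPM and in all other passing barcodes at 150 and 277 CPM. The part of erythroid RNA in the Mt1 values was not tested. By cluster Mt1 was at 12 and 188 CPM in unnamed cluster 1 and at 130 and 566 CPM in arterial-like cluster 6. Its neighbour in function Mt2 had 3 and 111 UMIs in endothelial-rich members, at 4.10 and 52.9 CPM, which gives a ratio of 3.69 with a wide counting interval (2.10 to 5.99). Sgk1, a kinase that regulates ion transport, stood at 71.1 and 153 CPM (1.11, 0.68 to 1.56), and Tsc22d3, the leucine zipper GILZ, at 36.9 and 69.6 CPM (0.91, 0.31 to 1.56). Fkbp5, a chaperone partner of the glucocorticoid receptor, had an interval that held 0 (0.15, -0.55 to 0.89). The letters GNACA and TGTNC of the glucocorticoid response element (N is any base), with 3 bases between them and on both strands, were found in 3 of 16 promoters of the list, those of Map3k6, Mt1 and Sgk1, and in 0.537% of all promoters. In cluster 1, 3 of 10 genes of the list were higher and 2 lower (median 0.19), near the 1612 and 1185 of all 6263 genes. In clusters 2, 6 and 7, 6 of 9, 6 of 9 and 8 of 15 were higher and 0, 2 and 1 lower. Medians there were 0.48, 2.01 and 0.42, and of all genes 1000 of 4618, 1207 of 3355 and 1662 of 5666 were higher. The list was also higher in all other passing barcodes (median 0.75), in the pericyte gate (0.51) and in the lymphatic endothelial gate (0.31).

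Immediate-early genes, which follow within minutes of a stimulus and also of tissue dissociation, had a median of 0.61 over all members (14 of 22 at least 1.3-fold higher) and 0.33 in endothelial-rich ones (8 of 20 higher, 0 lower). Of all genes 17.8% and 23.9% were that much higher in these sets. Fos, a part of the AP-1 factor, stood at 276 and 596 CPM in endothelial-rich members (1.11, 0.89 to 1.33), and Egr1 at 246 and 395 CPM (0.68, 0.45 to 0.92). Fos went both ways among the clusters, at 204 and 447 CPM in cluster 2, 217 and 628 CPM in cluster 6 and 892 and 1536 CPM in cluster 7, but at 227 and 66.3 CPM in cluster 1. The heat shock gene Hspa1b stood at 79.3 and 183 CPM (1.21, 0.81 to 1.63). With endothelial-rich members taken at 0.9 the immediate-early median was -0.0053, so no direction is given for this list in the purest members.

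**Figure D4:**
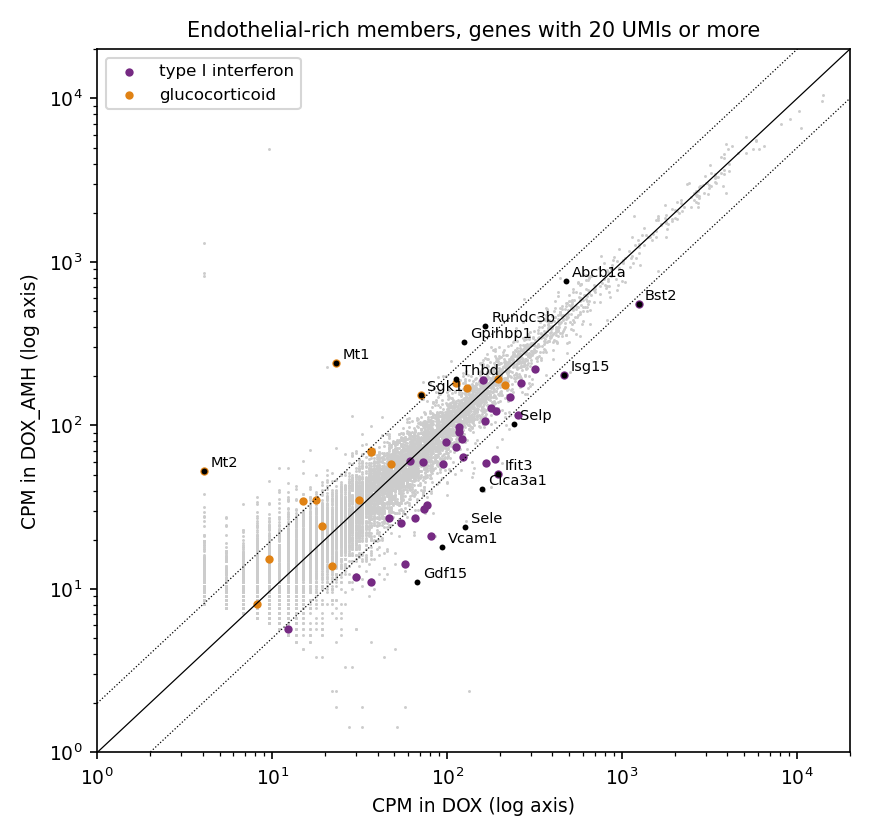
CPM in DOX (horizontal) and DOX_AMH (vertical), both on log axes, of each gene with at least 20 UMIs in endothelial-rich members (grey points), with levels under the floor of 3 counts drawn at the floor. The solid line marks equal levels and the dotted lines 2-fold differences; interferon genes (purple) such as Ifit3 at 195 and 50.5 CPM lie below the solid line, and glucocorticoid genes (orange) such as Mt1 at 23.2 and 240 CPM mostly above it.

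Genes of BMP and AMH signalling showed no shared direction. Of 19 measured in endothelial-rich members 5 were at least 1.3-fold higher and 4 lower (median 0.09), near the background of 23.9% higher and 16.2% lower. Amhr2, the receptor of AMH, had 3 and 4 UMIs over all members and 0 and 2 in endothelial-rich ones, at or near the floor, so no level can be given for it. In all other passing barcodes it stood at 1.58 and 2.44 CPM. Id1, a target of BMP signalling that restrains differentiation, stood at 310 and 309 CPM in endothelial-rich members (-0.01, -0.23 to 0.22). Over all members it stood at 170 and 236 CPM (0.47, 0.32 to 0.63) and in all other passing barcodes at 45.6 and 85.7 CPM (0.91). At 2000 UMIs an Id1 UMI was found in 32.8% (21.6 to 45.7) and 36.0% (28.3 to 44.2) of endothelial-rich members and in 4.59% and 8.17% of the other passing barcodes. Unthinned, the shares were 65.2% and 66.5% of endothelial-rich members and 22.4% and 26.0% of the others. Within clusters Id1 stood at 204 and 207 CPM in cluster 2, 207 and 199 CPM in cluster 1, 419 and 367 CPM in cluster 6 and 637 and 523 CPM in cluster 7. The related Id3 was higher, at 599 and 859 CPM in endothelial-rich members (0.52, 0.37 to 0.67), and Id2 stood at 36.9 and 54.3 CPM (0.56, -0.06 to 1.22). Of the receptors, Eng stood at 480 and 358 CPM (-0.42, -0.61 to -0.24), Acvrl1 at 146 and 126 CPM (-0.21, -0.54 to 0.13) and Bmpr2 at 261 and 249 CPM (-0.07, -0.31 to 0.18). Of the transducers, Smad1 had a ratio of -0.10 (-0.29 to 0.09), Smad4 0.49 (0.02 to 0.98) and the inhibitory Smad7 -0.71 (-1.29 to -0.11).

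Among the genes that export doxorubicin, Abcb1a was higher in DOX_AMH in the vessels. It encodes P-glycoprotein and stood at 318 and 581 CPM over all members (0.87, 0.76 to 0.98) and at 477 and 766 CPM in endothelial-rich ones (0.68, 0.51 to 0.85). One DOX barcode held 21.5% of its UMIs in that set, and without the leading barcodes the ratio was 0.91. All 4 clusters showed the direction, at 610 and 769 CPM in cluster 1 (0.34, 0.08 to 0.60), 474 and 849 CPM in cluster 2 (0.84, 0.53 to 1.16), 577 and 1047 CPM in cluster 6 (0.86, 0.38 to 1.37) and 239 and 640 CPM in cluster 7 (1.42, 0.97 to 1.90). In all other passing barcodes Abcb1a stood at 9.40 and 9.88 CPM and in the lymphatic endothelial gate at 50.8 and 27.4 CPM. Abcg2, the breast cancer resistance protein, stood at 651 and 803 CPM in endothelial-rich members (0.30, 0.16 to 0.45) and at 26.6 and 27.9 CPM in all other passing barcodes. Abcc1 had 6 and 50 UMIs (1.54, 0.32 to 3.05). The topoisomerase gene Top2b, a target of doxorubicin in cells that do not divide, stood at 131 and 107 CPM (-0.29, -0.64 to 0.07). The whole list of topoisomerases and pumps had 2 of 11 genes higher and 2 lower by 1.3-fold. Of all genes in endothelial-rich members 23.9% were that much higher and 16.2% lower. The list as a whole was thus near the background, and the difference was that of single members of it.

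Rundc3b was among the 12 genes with the highest ratios over all members. It stood at 87.9 and 275 CPM (1.65, 1.46 to 1.84), at 165 and 406 CPM in endothelial-rich members (1.3, 1.02 to 1.58) and at 7.88 and 6.66 CPM in all other passing barcodes. On GRCm38 in the GENCODE annotation Rundc3b lies at chr5:8490334-8622952 on the minus strand and Abcb1a at chr5:8660077-8748575 on the plus strand, 37124 bases apart with no overlap. Both were higher in DOX_AMH in each of the 4 clusters, Rundc3b at 161 and 423 CPM in venous-like cluster 2 (1.40, 0.88 to 1.94) and at 53.1 and 225 CPM in cluster 7. In the lymphatic endothelial gate both were lower in DOX_AMH, Rundc3b at 29.4 and 10.5 CPM. Abcb1b, the next gene beyond Abcb1a, had a ratio of 0.16 (-0.60 to 0.99) in endothelial-rich members.

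Some genes of the capillary surface and of clotting control also differed. Gpihbp1 stood at 124 and 323 CPM in endothelial-rich members (1.38, 1.06 to 1.71), at 499 and 681 CPM in capillary-like cluster 7 (0.45, 0.12 to 0.79) and at 104 and 352 CPM in cluster 1 (1.77, 1.18 to 2.41). The fatty acid carrier gene Fabp4 stood at 1929 and 2121 CPM, with 38.9% and 33.7% of its UMIs in 1 barcode each. The transporter gene Cd36 had a ratio of 0.66 with 62.3% of its DOX UMIs in 1 barcode, and it stood at 1630 and 1655 CPM within cluster 7. The capillary list had 6 of 16 genes at least 1.3-fold higher and 3 lower (median 0.21, background 23.9% and 16.2%). At a share of 0.9 its median was -0.15, so no direction is given for it. Thbd, thrombomodulin, which turns thrombin towards activating protein C, stood at 112 and 193 CPM (0.78, 0.44 to 1.14), and Procr, the protein C receptor, at 156 and 110 CPM (-0.51, -0.84 to -0.17). The clotting factor gene F8 stood at 51.9 and 29.1 CPM (-0.84, -1.45 to -0.21) and Plat, the activator of plasminogen, at 15 and 33.4 CPM (1.15, 0.22 to 2.22). Of 11 coagulation genes 6 were at least 1.3-fold lower and 3 higher, beside 16.2% and 23.9% of all genes in endothelial-rich members. Of 12 vasoactive genes 3 were higher and 2 lower, near that background. Nos3, the endothelial nitric oxide synthase, stood at 82.0 and 69.1 CPM (-0.25, -0.69 to 0.21). Klf4, a flow-responsive factor, stood at 170 and 235 CPM (0.47, 0.19 to 0.77), and its relative Klf2 at 376 and 395 CPM (0.07, -0.13 to 0.27).

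Genes of the cell cycle turned direction with the purity of the members. Over all members 16 of 22 G2/M genes were at least 1.3-fold lower in DOX_AMH (median -0.62), and in endothelial-rich members 10 of 19 were higher and 1 lower (0.55). Of the S phase genes 14 of 18 were higher in endothelial-rich members, 0 lower (0.71). The background was 17% lower over all members, and 23.9% higher and 16.2% lower in endothelial-rich ones. Few cells carried the counts of the cell cycle genes. Mki67, the marker of cycling cells, had a UMI in 7 of 66 and 12 of 155 endothelial-rich members. At 2000 UMIs these shares were 6.25% (1.73 to 15.2) and 4.00% (1.48 to 8.50), which overlap, and the histone gene Hist1h2ap had 53.3% and 47.2% of its UMIs in 1 barcode of each library. At a share of 0.5 the G2/M median was -0.35. A difference in the share of dividing endothelial cells was not detectable with these numbers of cells. In all other passing barcodes 22 of 22 G2/M genes were lower (background 7.95%).

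**Figure D5:**
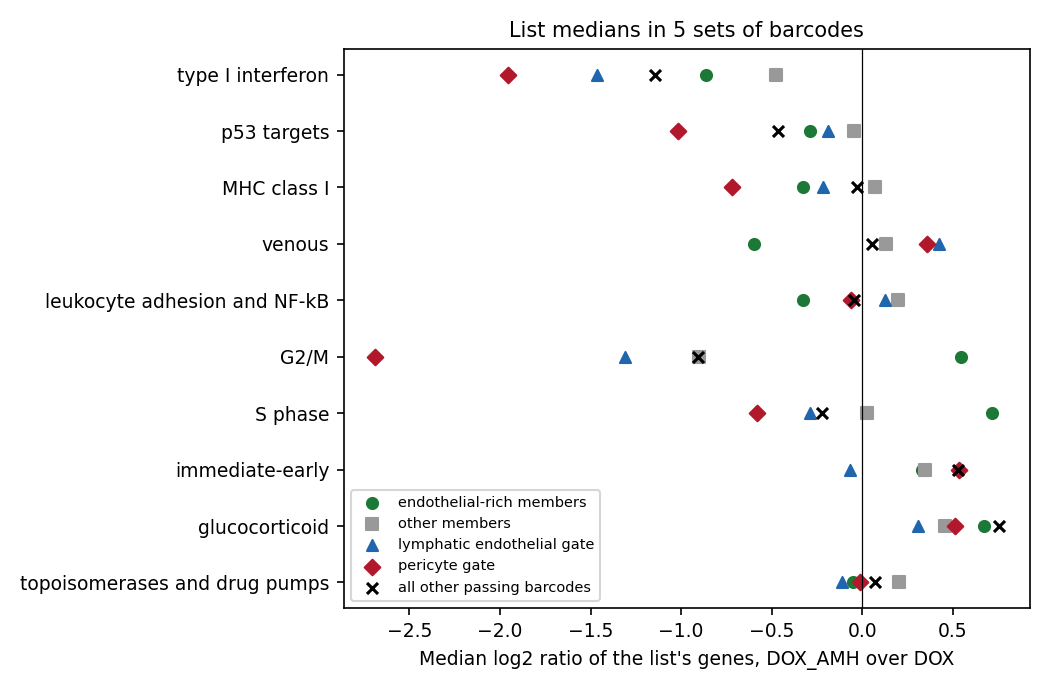
Median log2 ratio, DOX_AMH over DOX (horizontal axis), of 10 gene lists in endothelial-rich members, other members, the lymphatic endothelial gate, the pericyte gate and all other passing barcodes (1 mark each). Interferon medians lie below 0 in all 5 sets, from -1.95 in the pericyte gate to -0.48 in other members, and glucocorticoid medians above 0 in all 5, while the G2/M median is above 0 in endothelial-rich members and below 0 in the other 4 sets.

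Counted by size, 69 of 7271 genes (0.949%) lay 2-fold or more above DOX and 186 (2.56%) lay 2-fold or more below it over all members, among genes that had 20 UMIs or more and reached 20 CPM in either library. In endothelial-rich members 202 of 7090 were higher (2.85%) and 157 lower (2.21%). These counts have no test, and the endothelial-rich set held 731473 and 2098647 UMIs. Of the 12 lowest genes over all members, Ifit3 was the only one with more than 50 UMIs in endothelial-rich members. The other 11 had at most 26 UMIs there in either library, among them Hsd11b2 at 46.2 and 3.86 CPM over all members, Mfap5 at 221 and 38.2 CPM, the crosslinking enzyme Lox at 43.3 and 12 CPM and Negr1 at 163 and 52.3 CPM. These differences thus lay in the mixed members.

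The highest genes over all members divided in the same way. The neutrophil chemokine gene Cxcl2 stood at 0.326 and 64.3 CPM over all members and had 0 and 2 UMIs in endothelial-rich ones, and Cxcl5 had 0 and 92 UMIs over all members and 0 in endothelial-rich ones. Against the floor of 3 counts in DOX, the log2 ratio of Cxcl5 over all members was at least 4.42. Plaur, the urokinase receptor, stood at 12 and 44.8 CPM over all members and at 28.7 and 23.8 CPM in endothelial-rich ones. Scin, an actin-severing protein, stood at 24.1 and 66.4 CPM over all members and at 23.2 and 72.9 CPM in endothelial-rich ones (1.65, 0.92 to 2.47), and Ch25h, which makes 25-hydroxycholesterol, stood at 4.23 and 23.4 CPM over all members and 9.57 and 23.8 CPM in endothelial-rich ones. In endothelial-rich members alone, the Wnt target Axin2 stood at 6.84 and 32.9 CPM (2.27, 0.97 to 3.93), the iron oxidase gene Heph at 4.10 and 31.9 CPM (2.96, 1.35 to 5.27) and the circadian factor gene Hlf at 12.3 and 55.3 CPM (2.17, 1.19 to 3.33). Among the lowest there, Clca3a1, which is known from lymphatic and venous endothelium, stood at 157 and 41.0 CPM (-1.94, -2.36 to -1.52). It stood at 135 and 19.3 CPM in cluster 1 (-2.81, -3.82 to -1.87) and at 175 and 30.7 CPM in cluster 7, while the interval in cluster 2 held 0 (-0.37, -0.98 to 0.23) and cluster 6 had 2 Clca3a1 UMIs in each library. Slco3a1, an organic anion transporter, stood at 84.8 and 21.0 CPM (-2.02, -2.61 to -1.43). Fabp5 had a ratio of -2.09 with 57.3% of its DOX UMIs in 1 barcode, and -1.33 without the leading barcodes. The genes of endothelial-rich members were ranked after their values were seen.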

How the data were processed

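Droplet 3′ libraries of cells from the pooled uteri of 5 mice were made for each of the 2 groups. Per the submitters' processing notes the authors used Cell Ranger 7.0.0 and the mouse build mm10, and they deposited raw UMI counts per gene and barcode, in which the lowest barcode held 500 UMIs. From these counts, members were taken by the rule stated above, their UMIs summed per library and expressed as CPM over all genes. Log2 ratios have exact intervals from the binomial split of UMIs, a library at 0 was set to 3 counts, and no p-value was computed because each group has 1 library. Lists were described by counts at 1.3-fold among genes with at least 20 UMIs. Clusters of members came from scanpy 1.11.5 (2000 variable genes, 20 components, 15 neighbours, Leiden with igraph 0.11.9 at resolution 0.6), and were named from marker lists. Doublets were called with Scrublet and kept, except in 1 alternative. The trimmed mean scaling of edgeR 4.0.16 was used as an alternative scaling only, and the counting code was tested on simulated data. Promoters came from a RefSeq table.

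Genes were named by rule: the 12 highest and 12 lowest ratios over all members with at least 50 UMIs and 20 CPM, without mitochondrial, ribosomal protein, haemoglobin and rule genes and with at least 0.2 of the CPM of the cluster of all barcodes in which the gene was highest; up to 6 genes per list with the largest ratios; all receptor, SMAD and Id genes; the rule genes; and the 20 genes most restricted to members. The members and lists were chosen with earlier results of these data known. The endothelial-rich set, genes ranked in it, values by cluster and other genes named outside the rule were chosen after their values were seen. One gene that the rule would name is not reported here, and it stays in the counts of its list.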

Additional observations from a re-analysis of the deposited data

How the results depend on the processing

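Intervals cover counting error only, 1 library per group allows no test, and shallow genes limit what can be compared: an alternative with fewer than 20 UMIs of a gene gives no value. Endothelial-rich sets (at shares of 0.5, 0.8 and 0.9), leaving out clusters of 1 library and leaving out the leading barcode of each gene were chosen after seeing the data. No paired analysis was possible because each group has 1 library. TMM scaling, scaling over nuclear genes without ribosomal protein genes and stricter barcode limits moved none of the values computed under them. Leaving out doublets moved 14 values and reversed 0. The endothelial-rich set moved 107, reversed 19 and left 77 the same. The cause of each change listed here was not tested. In number, genes at least 2-fold higher were 69 over all members, and 45 with at least 4 of the 6 markers, 202 in endothelial-rich members, 204 at a share of 0.9, 310 after thinning to 2000 UMIs and 1239 with no minimum beyond 1 UMI. In number, genes at least 2-fold lower were 186 over all members, and 110 at a share of 0.5 and 1547 with no minimum beyond 1 UMI. Resolution 0.3 gave 7 clusters instead of 11. List medians in endothelial-rich members were -0.15 for endothelial identity, -0.33 for adhesion, -0.86 for type I interferon and 0.55 for G2/M. List medians at a share of 0.5 were -0.11 for endothelial identity, -0.28 for adhesion, -0.75 for type I interferon and -0.0088 for lipid handling. List medians at a share of 0.9 were -0.14 for endothelial identity, -0.15 for capillary, -0.25 for adhesion, -0.92 for type I interferon, -0.0053 for immediate-early, 0.78 for G2/M and -0.40 for lipid handling. List medians after thinning to 2000 UMIs were -0.19 for capillary and -0.074 for S phase. List medians with the mean of each barcode's CPM were -0.17 for capillary and -0.22 for lipid handling. List medians with at least 4 of the 6 markers were -0.36 for adhesion. In endothelial-rich members, ratios that turned direction were 0.98 for Chsy3, -0.27 for Plaur, -0.18 for Sox7, -0.12 for Fli1, -0.090 for Car4, 1.29 for Fmo1, -0.016 for Esam, -1.58 for Cd74, 0.10 for Nid1 and 0.22 for Col15a1. Others in that set were -0.15 for Dnajb1, 0.30 for Cenpf, 0.37 for Cenpe, -0.0073 for Id1, -0.017 for Syt15, -0.031 for Arhgef15 and -0.029 for Ushbp1. At a share of 0.5, ratios that turned direction were 0.42 for E330013P04Rik, -2.29 for Ccl2, -1.13 for Cd74, -0.012 for Abcb1b, -0.016 for Syt15 and -0.037 for Arhgef15. At a share of 0.9, ratios that turned direction were -0.32 for Plaur, -0.060 for Sox7, -0.18 for Fli1, -0.14 for Kdr, -1.05 for Btnl9, -0.97 for Cd36, -0.28 for Car4, 0.78 for Fmo1, -0.011 for Trp53i11 and -1.62 for Cd74. Others in that set were 0.11 for Nid1, 0.26 for Col15a1, -0.52 for Atf3, -0.068 for Hspa1a, -0.39 for Dnajb1, -0.032 for Abcb1b, 0.35 for Cenpf, 0.38 for Cenpe, -0.21 for Pparg and -0.21 for Id1. Others in that set were -0.045 for Cdh5, -0.037 for Flt1, -0.16 for Arhgef15 and -0.12 for Ushbp1. After thinning to 2000 UMIs, ratios that turned direction were -0.22 for Sox7, -0.89 for Btnl9, -0.12 for Car4, 0.16 for Fmo1, -0.39 for Id2 and -0.26 for Cd300lg. With the mean of each barcode's CPM, ratios that turned direction were -0.0020 for Bmx, -0.62 for Btnl9, -0.18 for Cd36, -0.17 for Car4, -0.096 for Pparg and -0.075 for Cd300lg. Without clusters of 1 library, ratios that turned direction were 0.10 for Bmp6. With at least 4 of the 6 markers, ratios that turned direction were -3.29 for Ccl2, -0.66 for Cd74 and -0.33 for Abcb1b. Without the leading barcodes, ratios that turned direction were -0.18 for Ccl2.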
